A study of Homo sapiens with 6 samples.

Results

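The proteasome genes described here are 41 of the 16570 genes measured by RNA sequencing in BR cells, the brain metastatic variant of the human breast cancer line MDA-MB-231. They were chosen by name alone, as every gene symbol of the table made of PSM, a letter from A to G and a number, with the immunoproteasome genes PSMB8, PSMB9 and PSMB10 and the PA28 genes PSME1 and PSME2 set aside for comparison. By role they comprised 14 subunits of the core particle (7 in the alpha ring and 7 in the beta ring), 17 subunits of the regulatory particle (6 ATPases and 11 non-ATPases), 7 assembly chaperones and 3 other regulators, the activators PSME3 and PSME4 and the inhibitor PSMF1. PSMA8 and PSMB11, subunits of tissue-restricted proteasomes, were not analysed here. All 41 genes passed the filter of a mean FPKM of at least 1 (FPKM, a fragment count scaled for transcript length and library depth) and were tested.

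BR-shCON cells carried a control vector, named a control knockdown in the labels and an empty vector in a legend of the study, and BR-shSPANXB1 cells carried a stable lentiviral shRNA against SPANXB1, a cancer-testis antigen, delivered in the vector plvx-shRNA-puro with selection by puromycin. Each group had 3 samples, all of the BR line in serum-containing medium. The knockdown rested on 1 shRNA sequence, so an effect of the target and an effect of that sequence cannot be told apart. The series describes the 3 samples of a group as independent. In edgeR the variance of each gene was drawn toward that of other genes. The weight of the other genes had a median of 23.8 prior degrees of freedom. Each edgeR p-value therefore reflects variation pooled across genes as well as that among the gene's own samples. The paper does not state whether samples of a group came from separate infections, so differences between infections may not be covered.

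The proteasome is the barrel-shaped protease that breaks down most ubiquitin-tagged proteins of the cytosol and nucleus. Its core particle is a stack of rings: the outer alpha rings gate the entry, and the inner beta rings hold the cutting sites of PSMB5 (chymotrypsin-like), PSMB6 (caspase-like) and PSMB7 (trypsin-like). The regulatory particle caps the core, where non-ATPase subunits bind and strip ubiquitin and a ring of ATPases unfolds the substrate and feeds it inward. In cells exposed to interferon, PSMB8, PSMB9 and PSMB10 take the places of PSMB5, PSMB6 and PSMB7 in newly built cores, which are then called immunoproteasomes. Subunit genes are transcribed together in most cells, and cancer cells with a high protein turnover depend on them.

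SPANXB1 itself checked the labels. Its FPKM was 444.87, 562.88 and 515.45 in the BR-shCON samples and 232.16, 259.73 and 247.88 in the BR-shSPANXB1 samples, with a log2 fold change of -1.11 (SE 0.055, edgeR adjusted p = 1.8e-14). SPANX genes are near-identical, so reads may be shared among them. Samples held 16294462 to 16666167 estimated counts. Of the genes listed for a line of the MDA-MB-231 type, 5 of 6 had a mean FPKM of at least 1 (VIM, CD44, AXL, CAV1 and KRT18), led by VIM. Of the luminal list 2 of 6 did (FOXA1 and KRT19). So did 1 of 3 endothelial, 1 of 3 neural and 0 of 2 leukocyte markers in the table. The summed FPKM of the endothelial, neural and leukocyte lists stayed at or below 1.61 in every sample. The luminal list summed to 95.89 to 103.64 in BR-shCON and 87.53 to 102.7 in BR-shSPANXB1, led by KRT19 at a mean of 92.61.

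The constitutive proteasome genes differed little between BR-shSPANXB1 and BR-shCON cells. In the unpaired edgeR fit PSMA7, an alpha ring subunit, and PSMD1, a scaffold subunit of the regulatory particle, were lower, and no member was higher. The lower genes were 4.88% of the 41. Of the 11439 tested genes, 6.98% were lower, 6.82% higher and 13.8% in either direction at an edgeR adjusted p under 0.05. A fit that pairs samples by replicate number called more members and more of all tested genes, as given below. The log2 fold changes of the members ran from -0.27 (PSMA7) to 0.12 (PSMB6) with a median of 0.0074, beside a median of 0.00023 over all tested genes, and 22 were positive and 19 negative. None reached the log2 fold change of 0.59 that the study required, a set of criteria that 0.624% of the tested genes with a control FPKM above 1 met.

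The precision sets what these counts can show. The standard error of the log2 fold change was 0.042 at the median of the members, with a range of 0.039 to 0.082. The 95% confidence intervals of the 39 members not past the test lay between -0.24 and 0.21, which is between 0.847-fold and 1.15-fold, so a change beyond those folds was outside every one of these intervals. At an unadjusted edgeR p under 0.05, 6 members were higher and 6 lower, beside 13.4% of all tested genes in each direction, and no member rose with DESeq2 or with limma at either pseudocount. The replicate numbers were taken to pair the samples, but no label states what samples of the same number share. With the replicate number as a block in edgeR, 8 members were higher and 6 lower, 34.1% of the members. Of all tested genes, 12.7% were higher and 13% lower in that fit. The members higher in that fit were PSMA3, PSMA5, PSMA6, PSMB2, PSMB6, PSMC3, PSMD4 and PSMD7, and those lower were PSMA7, PSMB5, PSMC1, PSMD1, PSMD12 and PSME3.

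The groups did not overlap in FPKM for 11 of the 41 members, 26.8%, beside 28.6% of all tested genes. Of these members, PSMA3, PSMB4, PSMC5 and PSMD7 overlapped in the scaled counts used in the test. The share of all tested genes on that scale was not counted. With 3 samples against 3 a two-sided exact permutation test cannot go below p = 0.1, which is the value of any gene whose groups are separate. As a scale for these values, 4462 tested genes had a mean FPKM within the range of the members, and the SD of those genes' log2 fold changes was 0.122, beside 0.0824 for the members. In that range 16.3% of the genes were called. The median size of the log2 fold change, without its sign, was 0.055 for the members and 0.063 for those genes.

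**Figure D1:**
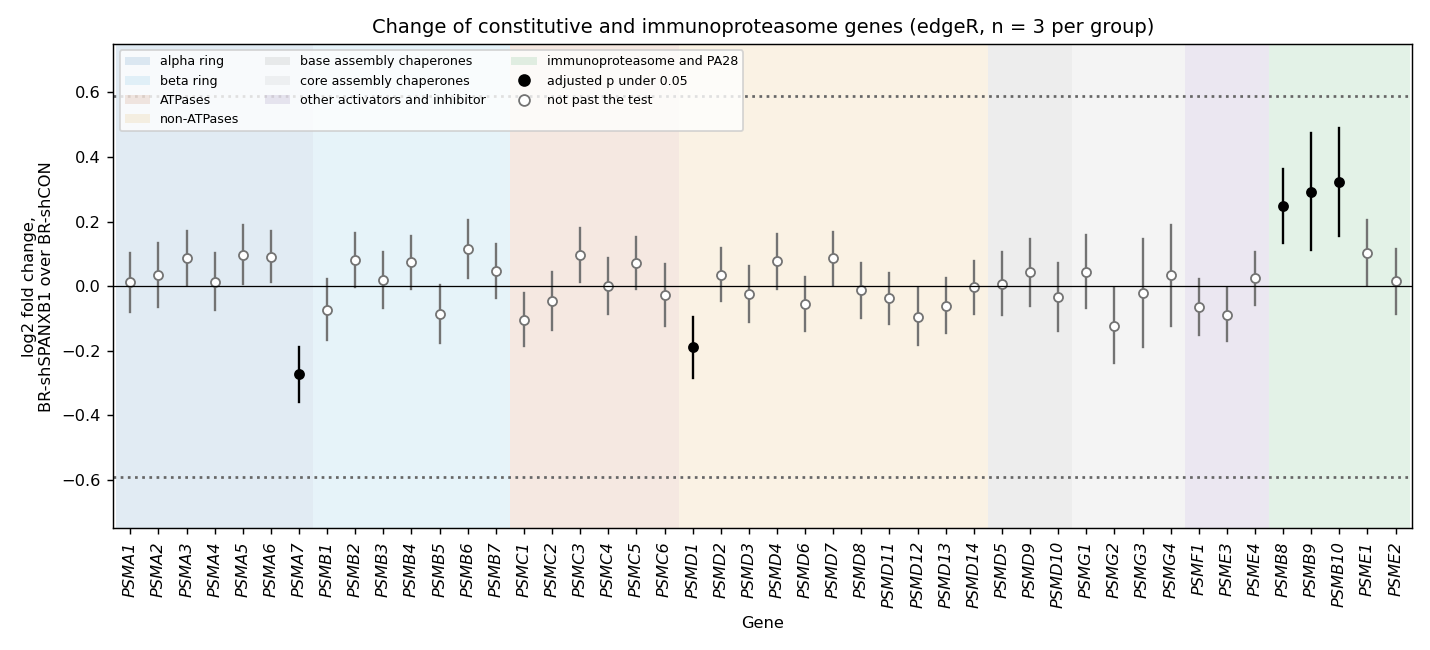
Log2 fold change, BR-shSPANXB1 to BR-shCON (vertical axis), for the 41 constitutive genes and the 5 immunoproteasome and PA28 genes (horizontal axis), with 95% confidence intervals from edgeR and n = 3 per group. Filled points are past an adjusted p of 0.05, dotted lines mark 0.59 in either direction, and shading marks the role. PSMA7 and PSMD1 are the filled points below 0, and PSMB8, PSMB9 and PSMB10 are those above it.

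Transcript level, unlike the change, differed widely among the subunits. Mean FPKM over the 6 samples ran from 18.8 for PSMF1 to 384.0 for PSMA7, a 20.4-fold range over all roles. The subunits of a ring are present in equal number in the assembled particle. Within a ring the range was 8.48-fold for the alpha ring, 10.2-fold for the beta ring and 3.77-fold for the ATPases. In the core the range was 13-fold, from PSMB2 at 29.6 to PSMA7, and in the regulatory particle 8.45-fold, from PSMD12 at 45.1 to PSMD2 at 381. FPKM is scaled by length, and no source used here names the annotation behind that length. The core particle had a median level of 206 FPKM and the regulatory particle 89.6 FPKM.

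Placed in order, PSMA7 (384.0 FPKM) and PSMD2 (381) overlapped in their samples and stood above the rest, since the lowest PSMD2 sample, 357.97, exceeded the highest PSMB7 sample, 319.79. PSMB7, PSMB4, PSMA6 and PSMB3 followed, with means of 301, 271, 257 and 244 FPKM. Of the 40 pairs of neighbours in this order, 34 overlapped in their sample values. The other gaps lay after PSMD4, PSMA1, PSMD14, PSMD12 and PSMD9. Below the gap after PSMD12 came PSMB2, 4 chaperones, PSME4 and PSMF1, from 29.6 down to 18.8 FPKM.

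**Figure D2:**
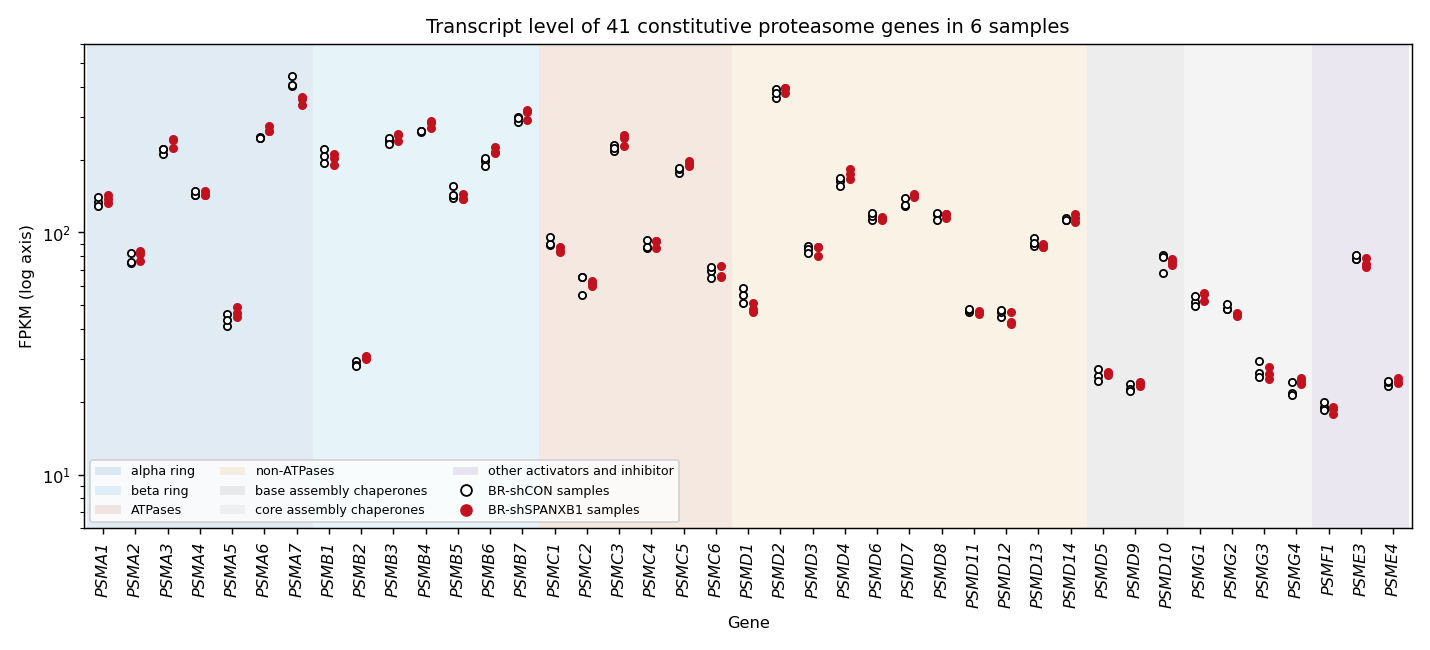
FPKM of each of the 41 genes in each of the 6 samples, on a log axis, with genes ordered by role (horizontal axis). Open points are BR-shCON and filled points BR-shSPANXB1 samples. The levels span 18.8 to 384.0 in the mean over samples, while the 6 points of a gene lie close together.

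Promoter sequences were at hand for 35 of the members. Of the 4 genes shown, PSMD1 is the regulatory particle gene that fell, and the others did not pass the test in the unpaired fit. PSMB5 and PSMA3 are core genes with a CCAAT box, and PSMC6 is an ATPase gene with an ETS site. The 4 sequences are examples picked by hand. They are the 250 bases before the gene start in RefSeq, build GRCh38.p14, written 5′ to 3′ on the strand of the gene, and capitals mark matches on either strand to the CCAAT box, to TGACTCA (an AP-1 core), to CCGGAAG (an ETS site) or to AANATGGC (a YY1 site).
PSMD1, chr2:231056617-231056866, plus strand: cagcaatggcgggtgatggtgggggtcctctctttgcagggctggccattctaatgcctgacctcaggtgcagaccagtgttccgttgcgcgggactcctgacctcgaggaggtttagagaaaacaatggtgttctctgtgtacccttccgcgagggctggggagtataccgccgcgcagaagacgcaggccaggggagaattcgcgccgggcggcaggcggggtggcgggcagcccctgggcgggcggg
PSMB5, chr14:23035221-23035470, minus strand: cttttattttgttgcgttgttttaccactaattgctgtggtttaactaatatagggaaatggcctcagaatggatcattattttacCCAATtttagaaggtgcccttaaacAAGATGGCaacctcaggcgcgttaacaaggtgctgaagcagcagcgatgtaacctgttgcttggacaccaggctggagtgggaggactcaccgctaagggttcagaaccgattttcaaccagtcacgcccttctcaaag
PSMA3, chr14:58244593-58244842, plus strand: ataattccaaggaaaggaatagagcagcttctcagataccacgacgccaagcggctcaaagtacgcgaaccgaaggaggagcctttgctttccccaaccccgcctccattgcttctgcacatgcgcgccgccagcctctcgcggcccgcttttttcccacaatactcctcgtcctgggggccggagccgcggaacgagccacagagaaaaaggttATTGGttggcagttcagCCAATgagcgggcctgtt
PSMC6, chr14:52706950-52707199, plus strand: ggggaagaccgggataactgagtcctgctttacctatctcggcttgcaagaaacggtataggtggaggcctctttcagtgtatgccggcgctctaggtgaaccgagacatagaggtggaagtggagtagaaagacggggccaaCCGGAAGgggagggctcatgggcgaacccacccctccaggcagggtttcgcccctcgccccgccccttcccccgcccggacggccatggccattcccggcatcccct

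The PSMD1 window shown holds none of these matches. PSMB5 holds a CCAAT box, the letters bound by NF-Y, and a YY1 site, YY1 being a transcription factor that the study examined. PSMA3 holds CCAAT boxes on both strands close to its start, and PSMC6 an ETS site. Each motif was searched on both strands in the 300 bases around each RefSeq start, and a gene with several starts was counted once (43 windows in the 35 members). PSMA7, PSMB1, PSMB6, PSMB7, PSMD4 and PSMG3 had no entry.

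ETS sites were found in 14 of the 35 member genes, 40.0%, beside 24.0% of 9483 tested genes and 12.2% of all 27305 genes with a promoter. They lay in 9 of the 16 regulatory particle genes and in 1 of the 10 core genes, PSMA6. YY1 sites were found in 9 members, 25.7%, beside 13.2% of tested genes and 7.97% of all genes, with 4 in the core and 4 in the regulatory particle. CCAAT was found in 18 members, 51.4%, beside 44.1% and 39.7%, with 7 in the core and 8 in the regulatory particle. TGACTCA, the core of the AP-1 and antioxidant response elements, was found in 3 members (PSMC5, PSMD2 and PSMD9), 8.57%, beside 4.61% and 6.05%. The looser antioxidant pattern TGANNNNGC, which can overlap TGACTCA, was found in 22 members, 62.9%, beside 51.5% and 47.1%. These are matches of letters and describe no binding.

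PSMA7 had the largest change of the 41 genes. It encodes an alpha ring subunit on chromosome 20 (chr20:62136735-62143440, minus strand, GRCh38, GENCODE 29), and no annotated exon of another gene overlaps its exons. Its FPKM was 401.79, 441.79 and 406.35 in BR-shCON against 356.06, 360.75 and 336.96 in BR-shSPANXB1. Every BR-shSPANXB1 sample was below every BR-shCON sample. The log2 fold change was -0.27 (SE 0.041, 95% confidence interval -0.36 to -0.19, edgeR adjusted p = 3.0e-05), which is 17.2% lower. PSMA7 passed the test as lower under each of the 14 alternatives run.

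The other alpha subunits did not follow PSMA7. Of these 6, all had a positive log2 fold change, from 0.012 (PSMA1) to 0.10 (PSMA5), and none was past the test in the unpaired fit. PSMA6 and PSMA3 are given because their groups were separate in FPKM, a choice made after their values were seen. PSMA6 had 246.90, 246.10 and 246.51 FPKM in BR-shCON against 263.11, 263.29 and 276.22 in BR-shSPANXB1. The log2 fold change of PSMA6 was 0.09 (edgeR adjusted p = 0.11, or 0.010 with the replicate block). PSMA5, the alpha subunit with the lowest level, had 40.99, 45.97 and 43.61 FPKM against 44.95, 49.32 and 46.70, and here the groups overlapped. Its edgeR adjusted p was 0.16, or 0.0079 with the block. PSMA3 had 211.16, 221.67 and 222.04 FPKM against 224.27, 242.82 and 241.83, with a log2 fold change of 0.09 (edgeR adjusted p = 0.16, or 0.023 with the block).

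PSMA7 made up a smaller share of the alpha ring transcripts in the knockdown. Its share of the summed alpha ring FPKM was 32.1%, 33.9% and 31.5% in BR-shCON against 28.6%, 28.4% and 26.4% in BR-shSPANXB1, or 32.5% ± 1.28 and 27.8% ± 1.21 (SD, n = 3). The shares did not overlap. PSMA7 was picked for its fall, so its share restates that fall and is no separate evidence. The sum of the 7 alpha genes overlapped between the groups, at 1251.62 to 1301.83 FPKM in BR-shCON against 1245.22 to 1276.99 in BR-shSPANXB1. Without PSMA7 the FPKM sum was separate, at 849.83 to 884.42 and 889.16 to 940.03. PSMA7 was left out after its values were seen. The separation is one of FPKM, and the scaled counts used in the test were not summed.

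In the beta ring no gene was past the test in the unpaired edgeR fit. At an unadjusted p under 0.05, 1 was higher and 0 lower, beside 13.4% of all tested genes each way. With the block 2 were higher and 1 lower, beside 12.7% and 13% of all tested genes. Of the 7 genes, 5 had a positive log2 fold change, and the median was 0.047. The summed FPKM of the ring was 1344.86, 1400.70 and 1370.42 in BR-shCON against 1407.75, 1458.73 and 1412.05 in BR-shSPANXB1, and the groups did not overlap. The separation is one of FPKM, and the scaled counts used in the test were not summed. On the FPKM scale the core change was larger, with a median log2 fold change of 0.064 in limma on log2(FPKM + 0.1) and 0.041 in edgeR. Of the catalytic subunits, none of which passed in the unpaired fit, PSMB6 had the highest log2 fold change of all members and PSMB5 the lowest of the ring.

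PSMB6, the caspase-like subunit, had 198.01, 188.92 and 202.84 FPKM in BR-shCON against 214.18, 212.94 and 226.27 in BR-shSPANXB1. The groups did not overlap. Its log2 fold change was 0.12 (SE 0.044, edgeR adjusted p = 0.077), and it passed with the replicate block (0.0048) and without BR-shCON replicate 3 (0.046). PSMB5, the chymotrypsin-like subunit that proteasome inhibitor drugs target, had 139.35, 155.38 and 142.51 FPKM against 137.69, 143.73 and 137.16. The PSMB5 groups overlapped, and its log2 fold change was -0.09 (SE 0.044, edgeR adjusted p = 0.21, or 0.043 with the block). PSMB7, the trypsin-like subunit and the highest beta gene, had 284.66, 299.59 and 296.37 FPKM against 314.67, 319.79 and 292.17, with overlap through BR-shSPANXB1 replicate 3. Its log2 fold change was 0.05 (edgeR adjusted p = 0.51).

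PSMB2, the lowest gene of the core, had 29.52, 28.33 and 28.05 FPKM in BR-shCON against 30.72, 30.89 and 30.10 in BR-shSPANXB1. Its groups were separate by a small margin, with a log2 fold change of 0.08 (edgeR adjusted p = 0.20, or 0.045 with the block). Over the whole core particle, 1 of 14 genes was lower and 0 higher, 11 log2 fold changes were positive and 3 negative, and the median was 0.041. At an unadjusted p under 0.05, 4 of the 14 were higher and 1 lower, beside 13.4% of all tested genes each way. With the block 5 were higher and 2 lower, beside 12.7% and 13% of all tested genes.

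**Figure D3:**
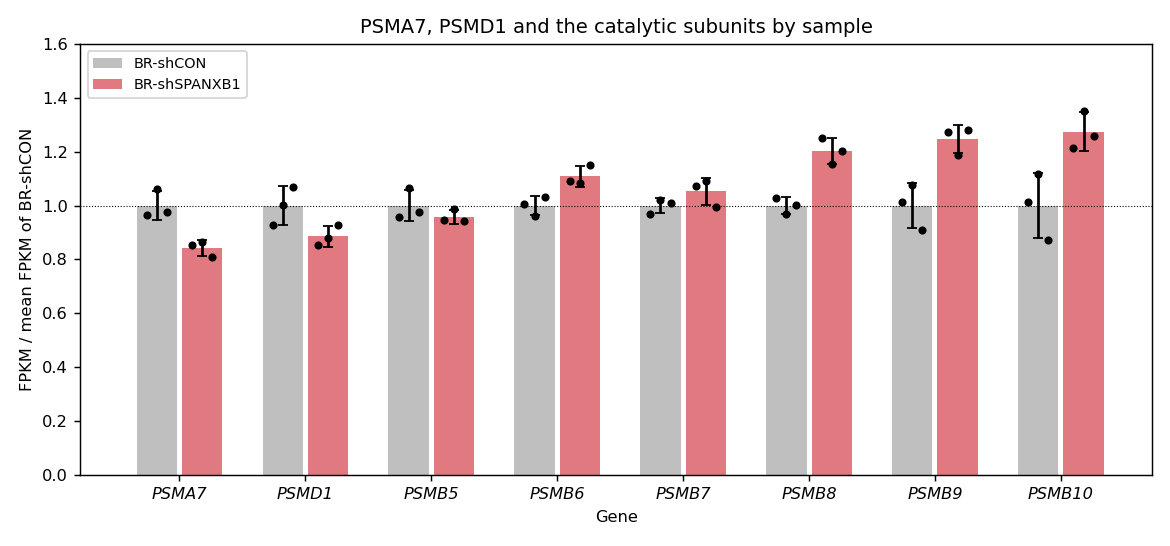
FPKM divided by the BR-shCON mean of the same gene (vertical axis) for PSMA7, PSMD1 and the catalytic subunits of the constitutive and the immunoproteasome. Bars are group means, error bars the SD of 3 samples, and points single samples. The BR-shSPANXB1 points of PSMA7 and PSMD1 lie below and those of PSMB6, PSMB8, PSMB9 and PSMB10 above all BR-shCON points of the same gene.

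PSMD1 was the regulatory particle gene that fell. It encodes a large scaffold of the base on which other non-ATPase subunits sit, and lies at chr2:231056864-231172827 on the plus strand (GRCh38, GENCODE 29). Its FPKM was 51.13, 55.20 and 58.96 in BR-shCON against 46.93, 48.36 and 51.03 in BR-shSPANXB1. The groups were just separate, at BR-shCON replicate 1 and BR-shSPANXB1 replicate 3. The log2 fold change was -0.19 (SE 0.047, 95% confidence interval -0.29 to -0.09, edgeR adjusted p = 0.0058), which is 12.3% lower. With limma on log2 FPKM the adjusted p was 0.091 at both pseudocounts, so the call was lost there. An exon of HTR2B overlaps PSMD1 on the opposite strand, and HTR2B had a mean FPKM below 1.

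PSMD2, the companion scaffold of the base and the docking site of shuttle receptors, was the highest gene of the regulatory particle. It had 357.97, 389.53 and 376.59 FPKM in BR-shCON against 375.35, 393.49 and 395.00 in BR-shSPANXB1, and the groups overlapped. Its log2 fold change was 0.04 (edgeR adjusted p = 0.61, 95% confidence interval -0.05 to 0.12). The intervals of PSMD1 and PSMD2 did not overlap, and their difference itself was not tested.

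Among the non-ATPases, 3 of 11 had a positive log2 fold change, the median over the 11 was -0.02, and none besides PSMD1 passed in the unpaired fit. PSMD7, a lid subunit that pairs with the deubiquitinase PSMD14, had 128.26, 138.96 and 129.62 FPKM in BR-shCON against 142.29, 144.03 and 140.47 in BR-shSPANXB1. The PSMD7 groups were separate in FPKM, while in scaled counts BR-shSPANXB1 replicate 3 lay just below BR-shCON replicate 2. Its log2 fold change, 0.09, was the highest of the non-ATPases (edgeR adjusted p = 0.16, or 0.016 with the block). PSMD12, a lid scaffold and the lowest gene of the particle, had 44.66, 46.78 and 47.78 FPKM against 42.68, 42.05 and 46.83. BR-shSPANXB1 replicate 3 stood within the BR-shCON range. The log2 fold change of PSMD12 was -0.09 (edgeR adjusted p = 0.16), and it passed with the block (0.0092) and without BR-shSPANXB1 replicate 3 (0.032). PSMD14 itself had a log2 fold change of -0.0038.

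The ATPases, which form the ring that unfolds substrates, had 3 positive and 3 negative log2 fold changes with a median of -0.01. None passed in the unpaired edgeR fit. At an unadjusted p under 0.05, 1 was higher and 1 lower, beside 13.4% of all tested genes each way. PSMC3, the highest ATPase at 232 FPKM, had 217.57, 229.33 and 222.40 FPKM in BR-shCON against 227.26, 252.60 and 244.72 in BR-shSPANXB1. Only BR-shSPANXB1 replicate 1 lay within the BR-shCON range. Its log2 fold change was 0.10 (edgeR adjusted p = 0.12), and it passed with the block (0.0036) and without BR-shSPANXB1 replicate 1 (0.040). PSMC1 had 89.04, 89.42 and 95.61 FPKM against 83.56, 82.73 and 87.26, with separate groups. The log2 fold change of PSMC1 was -0.10 (edgeR adjusted p = 0.088), and it passed with the block (0.0014) and without BR-shSPANXB1 replicate 3 (0.043). PSMC2, the lowest ATPase at 61.6 FPKM, had a log2 fold change of -0.05 (edgeR adjusted p = 0.54).

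Over the regulatory particle 1 of 17 genes was lower and 0 higher, 6 log2 fold changes were positive and 11 negative, and the median was -0.02 (-0.01 without BR-shCON replicate 3 and -0.0057 with limma). At an unadjusted p under 0.05, 2 of the 17 were higher and 3 lower, and with the block 3 were higher and 3 lower, beside the same shares of all tested genes as for the core. The summed FPKM was 2000.70, 2106.26 and 2064.20 in BR-shCON against 2054.48, 2138.62 and 2113.06 in BR-shSPANXB1, with overlap.

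The particles were also followed sample by sample through the median of their genes. The median log2 deviation of the 14 core genes from their BR-shCON means was -0.03, 0.01 and 0.0014 in the BR-shCON samples and 0.02, 0.06 and 0.06 in the BR-shSPANXB1 samples. These core medians did not overlap between the groups. For the regulatory particle the medians were -0.04, 0.01 and 0.01 against -0.05, 0.01 and -0.01, and here they overlapped. Replicate 1 was the lowest sample of its group for both particles in both groups. The difference between the particles was not tested.

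**Figure D4:**
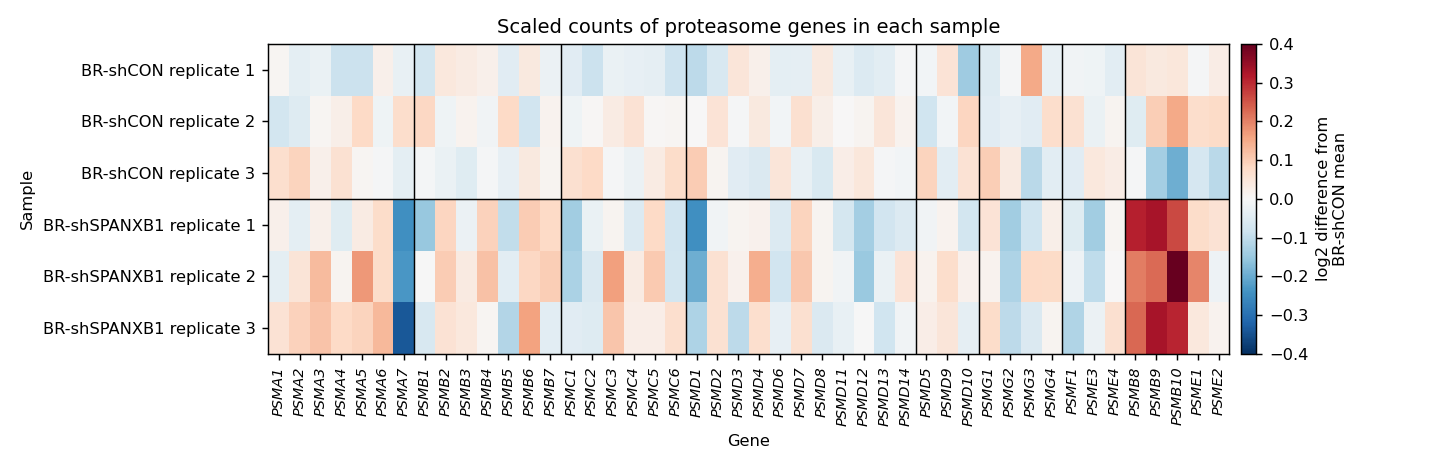
Log2 difference of TMM-scaled counts from the BR-shCON mean of each gene (colour) in each of the 6 samples (rows) for the 41 constitutive genes and, at the right, the 5 immunoproteasome and PA28 genes (columns), with vertical lines between roles. PSMA7 is blue in the 3 BR-shSPANXB1 samples, PSMB8, PSMB9 and PSMB10 are red there, and most other columns are pale in every sample.

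The assembly chaperones, which are not part of the finished particle, held no gene past the test. PSMG2, which with PSMG1 guides the alpha ring into place, had 48.34, 48.34 and 50.45 FPKM in BR-shCON against 45.10, 45.76 and 46.54 in BR-shSPANXB1. The groups were separate, but the log2 fold change of -0.12 had an SE of 0.057 and an edgeR adjusted p of 0.16, and the block did not bring it past the threshold (0.072). PSMG1 had a log2 fold change of 0.05 (edgeR adjusted p = 0.66). PSMD10, the base chaperone also called gankyrin and the highest of the chaperones at 75.7 FPKM, had -0.03 (0.73), and the sign turned without BR-shCON replicate 2, to 0.0064. PSMD9, the lowest at 23.2 FPKM, had 0.04 (0.64). PSMG3 and PSMG4 had the fewest counts, from 289 to 352 per sample, and the widest errors.

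Of the remaining regulators, PSME3 forms the nuclear PA28 gamma activator and had the lowest log2 fold change, -0.09. Its FPKM was 77.77, 77.48 and 80.88 in BR-shCON against 72.18, 73.87 and 78.24 in BR-shSPANXB1, with overlap through BR-shSPANXB1 replicate 3. The edgeR adjusted p was 0.16, or 0.011 with the block. PSME4, the activator also called PA200, had 0.02 (edgeR adjusted p = 0.75), and PSMF1, the inhibitor PI31, had -0.06 (0.35).

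The immunoproteasome genes set aside by the rule rose while the subunits they replace did not pass the test. PSMB8 had 46.32, 43.63 and 45.09 FPKM in BR-shCON against 56.37, 52.04 and 54.07 in BR-shSPANXB1, with separate groups and a log2 fold change of 0.25 (SE 0.056, edgeR adjusted p = 0.0027). PSMB9 had 17.38, 18.49 and 15.62 FPKM against 21.82, 20.37 and 21.99, a log2 fold change of 0.29 (SE 0.088, edgeR adjusted p = 0.025). PSMB10 had 27.15, 29.92 and 23.39 FPKM against 32.51, 36.27 and 33.75, a log2 fold change of 0.32 (SE 0.082, edgeR adjusted p = 0.0076). In all 3 genes every BR-shSPANXB1 sample stood above every BR-shCON sample. The PSMB9 call was lost with DESeq2 (0.10) and without BR-shCON replicate 3 (0.11), BR-shSPANXB1 replicate 1 (0.078) or BR-shSPANXB1 replicate 3 (0.082). The PSMB10 call was lost without BR-shCON replicate 3 (0.051) or BR-shSPANXB1 replicate 2 (0.053). PSMB8 and PSMB9 overlap each other in the annotation on opposite strands, and without strand their shared reads cannot be told apart. PSME1 and PSME2, the subunits of the PA28 activator, had 0.10 (edgeR adjusted p = 0.16, or 0.023 with the block) and 0.02 (0.88).

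Set against a constitutive catalytic subunit, the immunoproteasome transcripts remained the minority. PSMB8 was 33.2%, 28.1% and 31.6% of PSMB5 in BR-shCON against 40.9%, 36.2% and 39.4% in BR-shSPANXB1, with no overlap (two-sided exact permutation p = 0.1, the smallest possible). PSMB10 was 9.54%, 9.99% and 7.89% of PSMB7 in BR-shCON against 10.3%, 11.3% and 11.6% in BR-shSPANXB1, again with no overlap (exact permutation p = 0.1). PSMB9 was 8.78%, 9.79% and 7.70% of PSMB6 against 10.2%, 9.57% and 9.72%, and these groups overlapped (exact permutation p = 0.3). FPKM is scaled by length, so these are ratios of transcript level.

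Genes that serve the proteasome outside the name pattern were followed in lists from textbook knowledge. Of 12 further factors none passed in the unpaired edgeR fit. POMP, which matures the core, and SEM1, a small lid subunit, passed as lower with the replicate block (edgeR adjusted p = 0.017 for each). SEM1 also passed without BR-shSPANXB1 replicate 2 (0.031). POMP had 96.9 ± 2.18 FPKM in BR-shCON against 91.5 ± 0.821 in BR-shSPANXB1 (SD, n = 3), and SEM1 had 234 ± 23.2 and 218 ± 21.1. Of 6 ubiquitin and E1 genes none passed in the unpaired fit of all samples. With the block the E1 enzyme UBA1 was higher and UBB lower, while UBA6 passed as lower without BR-shSPANXB1 replicate 3 (edgeR adjusted p = 0.047). None of the 6 shuttle receptors, which carry ubiquitin-tagged proteins to PSMD2 and PSMD4, passed in either fit.

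The p97 list held the largest change among these genes. FAF2, a p97 cofactor of the endoplasmic reticulum, had 31.57, 31.36 and 34.72 FPKM in BR-shCON against 21.22, 22.12 and 22.55 in BR-shSPANXB1, with separate groups, a log2 fold change of -0.58 (SE 0.045, edgeR adjusted p = 2.2e-10) and a level 33.1% lower. VCP, the p97 ATPase itself, had 109 ± 3.62 and 116 ± 3.0 FPKM (SD, n = 3) and passed with the block alone (edgeR adjusted p = 0.018, against 0.22). The other 7 genes of the list did not pass in either fit.

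Of 14 genes that control proteasome transcription 13 were tested, and 2 were higher and 1 lower, beside 6.82% and 6.98% of all tested genes. NFE2L1, the factor that raises subunit genes when proteasomes are inhibited, had a log2 fold change of 0.0038 (edgeR adjusted p = 0.96). STAT3 was higher by 0.17 (SE 0.039, edgeR adjusted p = 0.0033) and FOXO4 by 0.39 (SE 0.095, 0.0057) on the log2 scale. BACH1, a repressor at antioxidant response elements, had 31.8 ± 0.384 FPKM in BR-shCON against 28.2 ± 0.446 in BR-shSPANXB1 (SD, n = 3), a log2 fold change of -0.18 (SE 0.039, edgeR adjusted p = 0.0016). MAFF and MAFG, partners of these factors, were higher with the block, and MAFF also without BR-shCON replicate 2 (edgeR adjusted p = 0.039) or BR-shSPANXB1 replicate 3 (0.047). DDI1 had a mean FPKM below 1 and was not tested.

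The neighbourhoods of the genes that fell were compared with the genes themselves. Within 1 Mb of PSMA7, 18 other tested genes had a median log2 fold change of -0.01, with 1 higher and 2 lower. Within 1 Mb of PSMD1, 13 tested genes had a median of 0.04, with 0 higher and 2 lower. Of all tested genes, 6.82% were higher and 6.98% lower. Whether either window differed from those shares was not tested. The 306 tested genes of chromosome 20 had a median of 0.01 and the 749 of chromosome 2 a median of 0.0027.

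The shRNA target is shown because 1 sequence made the knockdown, in lower case and written as DNA.
shSPANXB1 target: gaggaggaggaattcatagaa

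The longest run of letters that a member transcript shared with this target was 6 to 12 bases, with a median of 8, which is also the median of the tested genes, and 21 for SPANXB1. PSMA7 shared 8 bases, while PSMD1 shared 12, as did PSMB7. A run of 12 or more was found in 3.39% of 11190 tested genes. The letters TCATAGA, the match to the seed of the guide strand, occurred in 5 members (PSMA4, PSMB2, PSMC4, PSMD11 and PSMD9), 12.2%, beside 17.2% of tested genes. Neither PSMA7 nor PSMD1 was among them.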

How the data were processed

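Polyadenylated RNA of 3 BR-shCON and 3 BR-shSPANXB1 samples was sequenced from both ends on the BGISEQ-500 platform, with no step that marks strand. For 16570 genes the authors deposited raw estimated counts and FPKM, the latter corrected by the authors for length and depth. HISAT2 2.0.4, Bowtie2 2.2.5 and the build GRCh38.p12 appear in the processing notes of the submitters. The sources used here name neither the counting program nor the annotation. Groups follow the titles, while the extraction text names the BR and MDA-MB-231 lines without the knockdown. The 6 columns of TPM and 6 of averages were not used.

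Estimated counts were rounded, since 14.5% were not whole. Among members these were counts of PSMC1, PSMC2 and PSMG4, whose reads may be shared with similar genes. The counts were tested with edgeR 4.0.16 (TMM, robust quasi-likelihood, Benjamini-Hochberg) in R 4.3.3 over the 11439 genes whose mean FPKM reached 1. This procedure was tested on simulated counts with the same dispersion for every gene and unpaired samples, a simpler setting than these data. The unpaired fit was the reported one. Within-group deviations of samples with the same number correlated at 0.13, 0.14 and 0.19 across genes, so the replicate numbers, whose shared source no label states, were taken to pair the samples. Alternatives were limma 3.58.1 on log2(FPKM + 0.1) and log2(FPKM + 1), DESeq2 1.42.0, other filters and scalings, the replicate block and leaving out each sample. Single genes were given a two-sided exact permutation test. Genes were placed with GENCODE 29. Several further members overlap exons of other genes on the opposite strand, among them PSMC1 (NRDE2), PSME3 (BECN1) and PSMG2 (SPIRE1 and CEP76). Without strand, reads from such shared stretches cannot be told apart.

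The members and lists were chosen with earlier results of these data known. Genes named are members past the test, the catalytic subunits, the highest and lowest change and level of each role, and up to 4 genes of each other list with the smallest adjusted p. PSMA3, PSMA6, PSMD14, PSMG3, PSMG4, PSME2, NFE2L1 and MAFG were named with values or calls after these had been seen. Figures were drawn with matplotlib 3.10.9. Some results on the list of ubiquitin and E1 genes are not reported here.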

Additional observations from a re-analysis of the deposited data

How the results depend on the processing

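PSMA7 kept its direction and its side of the threshold under all 14 alternatives, with edgeR, DESeq2 or limma adjusted p up to 0.014. PSMD1 did so under all but limma on log2(FPKM + 0.1) and log2(FPKM + 1), with adjusted p = 0.091 for each, which left 1 member lower and 0 in the regulatory particle under both. The cause was not tested.

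The replicate block, which takes samples of the same number as pairs, moved the counts most. It gave 8 members higher and 6 lower, 5 and 2 in the core and 3 and 3 in the regulatory particle. Among all tested genes it gave 1452 and 1483. Leaving out 1 sample at a time gave 0 to 1 members higher (core 0 to 1, regulatory particle 0 to 1) and 2 to 4 lower (regulatory particle 1 to 3), with PSMB6 past the test without BR-shCON replicate 3, PSMC3 without BR-shSPANXB1 replicate 1, and PSMC1 and PSMD12 without BR-shSPANXB1 replicate 3. All tested genes lower ranged from 509 (without BR-shSPANXB1 replicate 2) to 752, and higher from 532 to 714. DESeq2 called 502 genes higher and 518 lower, limma 516 and 350 with the smaller pseudocount, and 351 lower with the larger. The core median was 0.064 on the scale of limma with the smaller pseudocount and 0.033 to 0.060 with 1 sample left out. The regulatory particle median was -0.0057 with limma at both pseudocounts, -0.01 with library totals alone, and -0.03 to -0.01 with 1 sample left out, nearest to 0 without BR-shCON replicate 3. The log2 fold change of PSMD10 ranged from -0.10 to 0.0064 with 1 sample left out, the latter without BR-shCON replicate 2. Of the values of single named genes, 595 kept direction and side, 25 passed the threshold, 8 lost it and 1 changed sign.

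With 3 samples per group, and counts of 289 per sample at the lowest member, an interval that includes 0 leaves the direction of a gene unresolved, and the block rests on pairing whose source is not stated.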
